A study of Mus musculus with 13 samples.

Results

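The regions described here are the stretches of chromatin that were open in every ATAC-seq library of the study and held no TCF1 ChIP-seq peak. ATAC-seq peaks of the 5 libraries that overlapped by at least 1 bp were joined into 49014 regions, of which 19815 held a peak in all 5 libraries. Of these common regions, 15131 (76.4%) overlapped none of the 5876 TCF1 peaks and 4684 did. The members were thus chosen by the presence of peaks and the absence of TCF1, and neither property is a result below.

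All samples were regulatory T cells (Tregs) from male C57BL/6 mice, sorted from CD4+ T cells as YFP+ CD25+ cells. WT mice carried Foxp3Cre-YFP alone. CAT mice carried Foxp3Cre-YFP with Ctnnb1flex3, an allele from which the recombinase removes the exon that marks the protein for destruction, so that β-catenin escapes degradation, with Cre expressed from Foxp3. ATAC-seq was performed on 3 WT and 2 CAT samples and RNA-seq on 3 WT and 3 CAT samples, all from lymph nodes of animals aged 21 days, whereas the single TCF1 ChIP-seq library came from lymph nodes and spleens of WT mice aged 10 to 12 weeks. TCF1 binding was therefore known for adult WT Tregs only, and its state in CAT Tregs was not measured.

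TCF1, encoded by Tcf7, is a high-mobility-group protein that binds DNA in T cells and recruits β-catenin when Wnt signalling stabilises it. ATAC-seq uses a transposase that cuts where nucleosomes leave DNA exposed, so a peak marks a promoter, an enhancer or another accessible element. Promoters of widely expressed genes are typically rich in CpG dinucleotides and open in most cell types.

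Few members lay just outside the rule. The members closest to a TCF1 peak lay 1 bp away from it, but 15 (0.0991%) lay within 100 bp, 52 (0.344%) within 500 bp and 797 (5.27%) within 5000 bp, and the median distance was 72147 bp on chromosomes that had a TCF1 peak. On the other side, the smallest overlap was 8 bp of a 142 bp TCF1 peak, and 4513 of the 4684 held a whole one. A further 4353 regions without TCF1 missed membership by a single library, most often CAT replicate 1 (2298) or CAT replicate 2 (1269). The median of their mean width was 262.2 bp, against 474.8 bp in the members.

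Promoter sequence gives a view of what the members contain. Of 32851 RefSeq promoters on GRCm38.p6, each spanning 250 bases before to 50 bases after a gene start, 6919 had their start inside a member and 3841 inside a common region with TCF1. The first had a median GC content of 61.3% and 21 CpG dinucleotides, the second 64.0% and 25, and the 22091 promoters in neither 49.0% and 4. Both common sets were thus CpG-rich. The promoters of 4 members are printed because their genes changed most or belong to the cell cycle list described below, and the promoter of Ctla4, which encodes an inhibitory receptor of Tregs and starts in a common region with TCF1, is printed for contrast. Each sequence reads 5′ to 3′ on the strand of its gene, with matches on either strand to the searched motifs in capitals.
Cdkn2a (chr4:89294570-89294869, minus strand): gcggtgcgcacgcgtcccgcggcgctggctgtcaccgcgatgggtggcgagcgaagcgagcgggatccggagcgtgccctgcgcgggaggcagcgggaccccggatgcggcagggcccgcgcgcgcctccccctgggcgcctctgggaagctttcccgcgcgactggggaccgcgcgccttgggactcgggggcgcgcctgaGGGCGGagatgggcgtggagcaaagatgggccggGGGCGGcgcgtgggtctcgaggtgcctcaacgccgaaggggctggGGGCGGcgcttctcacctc
Ube2c (chr2:164769679-164769978, plus strand): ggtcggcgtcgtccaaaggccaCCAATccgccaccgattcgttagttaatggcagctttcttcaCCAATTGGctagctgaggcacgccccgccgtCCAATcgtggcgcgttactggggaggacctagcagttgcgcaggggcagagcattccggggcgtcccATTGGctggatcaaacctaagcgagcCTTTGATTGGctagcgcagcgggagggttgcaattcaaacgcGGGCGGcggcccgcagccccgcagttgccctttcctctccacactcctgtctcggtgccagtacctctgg
Hspa1a (chr17:34972107-34972406, minus strand): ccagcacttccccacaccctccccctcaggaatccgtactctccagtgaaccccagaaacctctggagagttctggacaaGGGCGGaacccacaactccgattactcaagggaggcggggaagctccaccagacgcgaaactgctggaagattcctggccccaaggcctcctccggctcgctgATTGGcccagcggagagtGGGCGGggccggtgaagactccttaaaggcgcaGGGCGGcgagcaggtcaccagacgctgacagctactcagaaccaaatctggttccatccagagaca
Itga4 (chr2:79255176-79255475, plus strand): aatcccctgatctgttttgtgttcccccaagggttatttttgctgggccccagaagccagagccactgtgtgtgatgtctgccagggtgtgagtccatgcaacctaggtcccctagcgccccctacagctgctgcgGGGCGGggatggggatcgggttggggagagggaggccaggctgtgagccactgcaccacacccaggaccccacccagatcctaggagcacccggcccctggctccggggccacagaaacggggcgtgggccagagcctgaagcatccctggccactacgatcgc
Ctla4 (chr1:60908775-60909074, plus strand): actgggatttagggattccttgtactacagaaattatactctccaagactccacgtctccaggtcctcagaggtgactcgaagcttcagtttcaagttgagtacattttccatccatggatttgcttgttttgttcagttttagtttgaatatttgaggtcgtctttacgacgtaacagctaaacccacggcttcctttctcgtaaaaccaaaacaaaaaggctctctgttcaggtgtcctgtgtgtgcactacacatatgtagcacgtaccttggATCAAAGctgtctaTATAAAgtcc

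Among the motifs searched on both strands, SP and KLF factors were represented by the letters GGGCGG and the factor NFY by the letters CCAAT. ETS factors were represented by the letters CCGGAAG, the factor YY1 by the letters ATGGCGG and the factor NRF1 by the letters GCATGCG. The TATA box was searched as the letters TATAAA, RUNX factors as the letters TGTGGTT and the factor AP-1 as the letters TGANTCA. TCF and LEF factors were represented by the letters CTTTGAT and, as an alternative form, the letters CTTTGAA. The Cdkn2a promoter held GGGCGG 3 times and none of the others. The Ube2c promoter held CCAAT 6 times and GGGCGG once, and it also held CTTTGAT, which overlaps a CCAAT match, although no TCF1 peak was called there. Hspa1a held GGGCGG 3 times and CCAAT once, and Itga4 held GGGCGG once. Ctla4 held CTTTGAT on the opposite strand and TATAAA. It was not typical of promoters in regions with TCF1, of which 71.2% held GGGCGG, 6.12% a TCF/LEF match and 5.94% TATAAA.

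Over all promoters in members, GGGCGG was present in 67.6%, against 71.2% with TCF1 and 35.7% of all promoters. CCAAT was present in 42.9%, against 33.1% and 37.4%. CCGGAAG was present in 19.1%, against 25.2% and 8.86%. A TCF/LEF match of either form was present in 5.03% (348 promoters), against 6.12% of promoters in regions with TCF1 and 8.65% of all promoters. TATAAA was present in 5.45%, against 5.94% and 13.6%, and TGANTCA in 4.1%, against 3.51% and 7.81%. These counts describe letters in a fixed window and not binding.

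Members were narrower in CAT than in WT Tregs. The width of a region in a library was the number of bases covered there by its peaks. The median width of the 15131 members was 622, 579 and 530 bp in WT replicates 1, 2 and 3, and 290 and 307 bp in CAT replicates 1 and 2. Every WT library lay above both CAT libraries. The median was 577 ± 46.0 bp (SD, n = 3) in WT and 298.5 ± 12.0 bp (SD, n = 2) in CAT, a difference of -0.95 on the log2 scale or a CAT to WT ratio of 0.518. An exact two-sided permutation test over the 10 ways to split the 5 libraries gave p = 0.1, the smallest that this design allows.

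**Figure D1:**
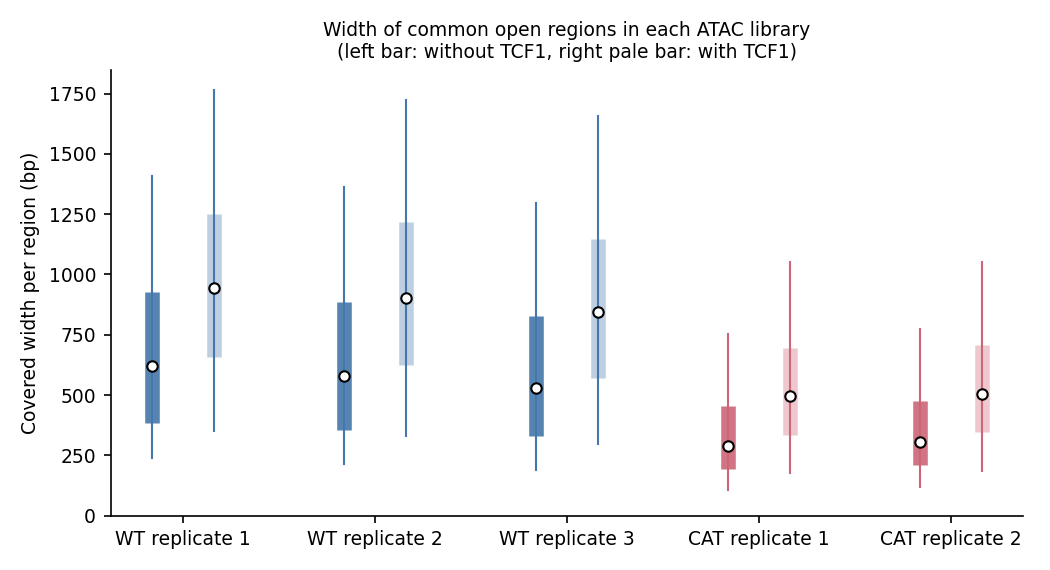
Covered width per common region (bp) in each ATAC library, with the left bar for regions without TCF1 and the right, pale bar for regions with TCF1. Circles mark medians, bars the 25th to 75th percentile, and lines the 5th to 95th percentile; both CAT medians without TCF1 (290 and 307 bp) lie below the 3 WT medians (530 to 622 bp).

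Peaks of all kinds were narrower in CAT, and features of the peak lists moved with genotype. Over all peaks, the median width was 384 to 399 bp in WT and 254 bp in both CAT libraries. WT libraries had 33204 to 41197 peaks and CAT libraries 27129 to 29548. The median deposited pileup was 12.8 to 13.8 in WT and 8.34 to 8.95 in CAT. Median fold enrichment went the other way, at 2.64 to 2.76 in WT and 3.52 to 3.65 in CAT. These score columns could not be linked to the coordinates. The peak names carried one run name in all WT lists and another in both CAT lists. Genotype, peak-calling run and depth cannot be told apart in these files. Divided by each library's median over all of its peaks, the difference of members shrank to -0.33 on the log2 scale (exact permutation test, two-sided, p = 0.1).

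Members were narrower than common regions with TCF1 in every library. A wider region has more bases that a TCF1 peak can overlap, so the rule itself favours narrower members. How much of the order, or of the difference between genotypes below, comes from the rule was not tested. The regions with TCF1 had medians of 942, 901 and 844 bp in WT and 495 and 503 bp in CAT. The ratio of the median without TCF1 to the median with TCF1 was 0.66, 0.643 and 0.628 in WT replicates 1 to 3, and 0.586 and 0.61 in CAT replicates 1 and 2. The CAT ratios lay below all 3 WT ratios, so the members narrowed by 0.106 more on the log2 scale than the regions with TCF1 (exact permutation test, two-sided, p = 0.1, the smallest possible). With the widest single peak of a region as its width, the difference was -0.077 (p = 0.2, exact permutation test).

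Region by region, the median CAT to WT ratio was 0.561 in members, with 5% of members below 0.264 and 5% above 0.967. In regions with TCF1 the median was 0.597. Both CAT libraries were below all 3 WT libraries in 12426 members (82.1%), against 84% of all common regions, most of which are the members themselves. Both CAT libraries were above all 3 WT libraries in 99 members (0.654%), against 0.545% of all common regions, and the remaining 2606 overlapped. With each width divided by its library's median over the common regions, 4801 members (31.7%) were wider and 2792 (18.5%) narrower in both CAT libraries, against 34.2% and 18% of all common regions. That scale centres the common regions by construction, so its counts show order within a library and not a gain in width. Divided by the median over all peaks instead, 2034 members were wider and 5354 narrower. Among regions with TCF1, 90.0% were narrower and 0.192% wider as measured, and 42.1% were wider and 16.4% narrower on the common-region scale. Members thus had the lower median ratio but separated less often between genotypes, and the difference in these shares was not tested. Leaving out 1 library raised the 99 wider members to between 208 and 320.

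**Figure D2:**
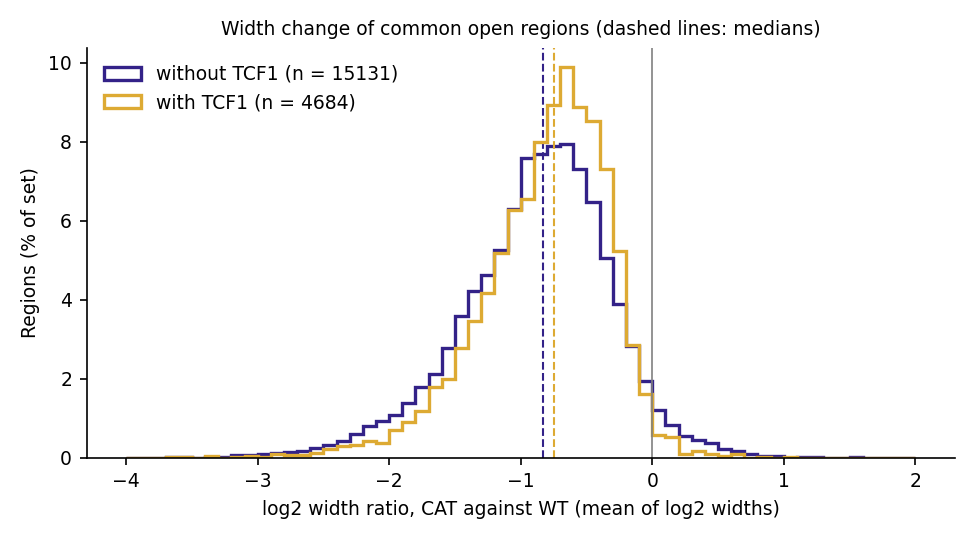
Distribution of the log2 width ratio of CAT against WT, as percent of regions per 0.1 bin, for common regions without and with TCF1. Dashed lines mark the medians, -0.83 without TCF1 and -0.74 with TCF1; only 4.09% of members lie above 0.

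Widths of the same member were reproducible within a genotype. Spearman's rho across the 15131 members was 0.88 to 0.891 between WT libraries, 0.801 between the CAT libraries, and 0.667 to 0.711 between a CAT and a WT library. These correlations run across regions, which are not independent replicates.

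Members at gene starts were the widest. Of the 15131 members, 5319 (35.2%) held a listed RefSeq gene start, 6479 (42.8%) lay inside a gene without holding a start and 3333 (22.0%) lay outside genes. The promoter table had an entry for 79.9% of protein-coding genes and for none on chromosome 18, so the first share is a lower count. Of the regions with TCF1, 58.9% held a listed start. Among regions open in only some libraries the share was 3.47% for those found only in CAT (in both CAT libraries and no WT library), 6.59% for those found only in WT (in all 3 WT libraries and no CAT library) and 3.69% for the remainder.

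Median widths of members at gene starts were 882, 847 and 793 bp in WT and 429 and 449 bp in CAT. Inside genes they were 515, 460 and 414 bp in WT and 242 and 257 bp in CAT. Outside genes they were 447, 401 and 369 bp in WT and 226 and 245 bp in CAT. The groups did not overlap at any position, and the median log2 ratio was alike at -0.84, -0.84 and -0.81. Members wider in both CAT libraries numbered 5 at gene starts (0.094%), 56 inside genes (0.864%) and 38 outside genes (1.14%). On the common-region scale these shares were 33.4%, 30.0% and 32.5%, so the order of positions held only for widths as measured.

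**Figure D3:**
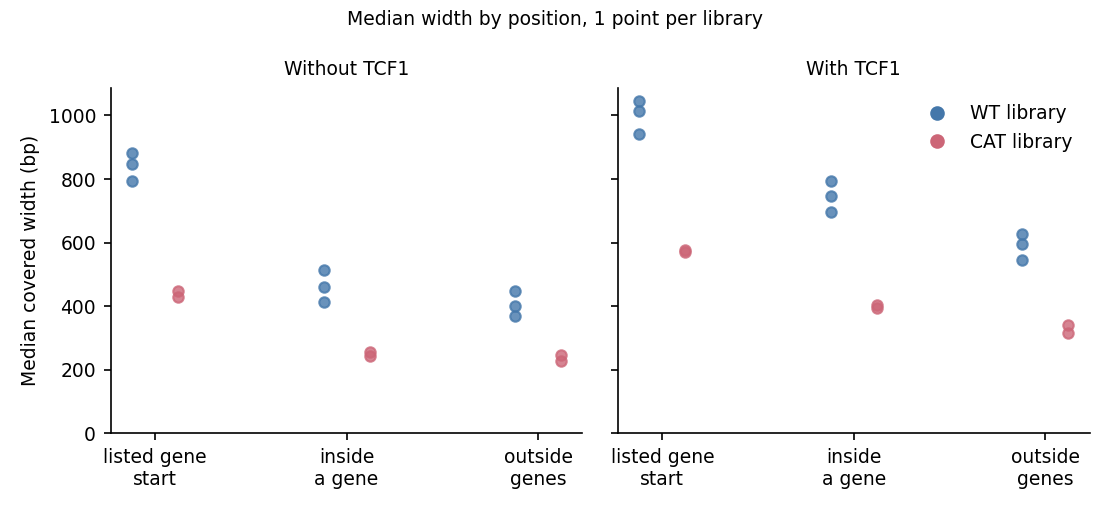
Median covered width (bp) at listed gene starts, inside genes and outside genes, with 1 point per ATAC library and separate panels for regions without and with TCF1. At each position both CAT points lie below the 3 WT points, and members at gene starts (429 to 882 bp) are wider than those outside genes (226 to 447 bp) within each library.

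The 5 widest members by mean width hardly differed between genotypes. The widest, at chr1:24611607-24616109 (mm10) outside annotated genes, covered 4502, 4488 and 4491 bp in WT and 4497 and 4500 bp in CAT. The next, at chr14:19415694-19419605, covered 3844 to 3850 bp in WT and 3898 to 3901 bp in CAT. The other three lay at chr17:39843072-39847032, inside Myo3a at chr2:22587340-22590264, and at chr9:2999997-3002700, with CAT to WT ratios of 0.955, 0.997 and 1.08. Of the 5, the one in Myo3a alone lay inside a gene. No filter for repeats or mapping artefacts was applied here to the deposited peaks, and whether these 5 are such was not tested.

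The largest increases in width were seen at small elements. Among members at least 500 bp wide in 1 genotype and with no overlap between genotypes, the 2 largest ratios, 2.76 and 2.69, were on an unplaced contig and at chr4:145210615-145211475 outside genes. The next 3 lay inside genes. The member in Milr1, which encodes an inhibitory immunoglobulin-like receptor, covered 526, 147 and 271 bp in WT and 629 and 585 bp in CAT (chr11:106762125-106762799, ratio 1.93). The member in Ptpre, a receptor tyrosine phosphatase gene, covered 370, 287 and 265 bp in WT and 587 and 444 bp in CAT (chr7:135580764-135581402, ratio 1.68). The member in Ripor2 covered 238, 380 and 315 bp in WT and 507 and 534 bp in CAT (chr13:24599494-24600072, ratio 1.67). The CAT libraries exceeded every WT library in each case, as the choice of these members required.

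The largest decreases ended at the lower limit of the peak caller. At the start of B3gnt5, which encodes a glycosyltransferase of lactoseries glycolipids, the member covered 1260, 1304 and 1123 bp in WT and 88 and 87 bp in CAT (chr16:19760053-19761356, ratio 0.0712). The member inside Dst, which encodes the cytoskeletal linker dystonin, covered 1171, 1118 and 927 bp in WT and 82 and 87 bp in CAT (chr1:34005254-34006591, ratio 0.0788). The other 3 lay at the start of Gm33933, outside genes and in Gm30568, at ratios of 0.0705, 0.0782 and 0.0805. The narrowest peak was 82 bp in either CAT list and 85 to 93 bp in the WT lists. In all, 90 members were under 100 bp in both CAT libraries and 2 in every WT library.

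Members were assigned to genes through the deposited gene loci, extended by 5 kb on each side. Of 20204 genes with a locus, 7744 (38.3%) had common regions that all lacked TCF1, 5606 (27.7%) had at least 1 common region with TCF1 and 6854 (33.9%) had none. TCF1 peaks outside the common regions were not counted, so the 7744 genes may still lie near one. At Foxp3, a TCF1 peak lay 1425 bp from a member. Most of the 7744 genes, 5087 (65.7%), had a single member, 839 had 3 or more, and the highest number was 15. Of the members, 11126 (73.5%) lay at a locus, and 3249 of those shared a gene with a region that held TCF1. Deposited loci merged neighbouring genes in places, so that 1645 of the 7744 genes shared a locus. Of the 82 named genes whose common regions all lacked TCF1, 70 had a member over their own RefSeq span.

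RNA of these genes changed about as often as RNA in general. Of the 13193 genes tested with edgeR's quasi-likelihood test, 25.5% rose and 23.5% fell in CAT (Benjamini-Hochberg adjusted p under 0.05). Of the 7744 genes, 6446 passed the filter on low counts, of which 1674 (26.0%) rose and 1557 (24.2%) fell, with a median log2 change of 0.00665 against 0.000738 over all tested genes. Of the tested genes with a TCF1 common region, 23.0% rose and 23.1% fell, and of those with no common region 33.0% and 21.5%. Their median levels per transcript length were 10.2, 17.2 and 0.798 FPKM in that order. A share near the background is no result about the members, and no difference between these gene sets was tested. In bulk RNA, fewer cells of a type and less RNA per cell cannot be told apart.

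**Figure D4:**
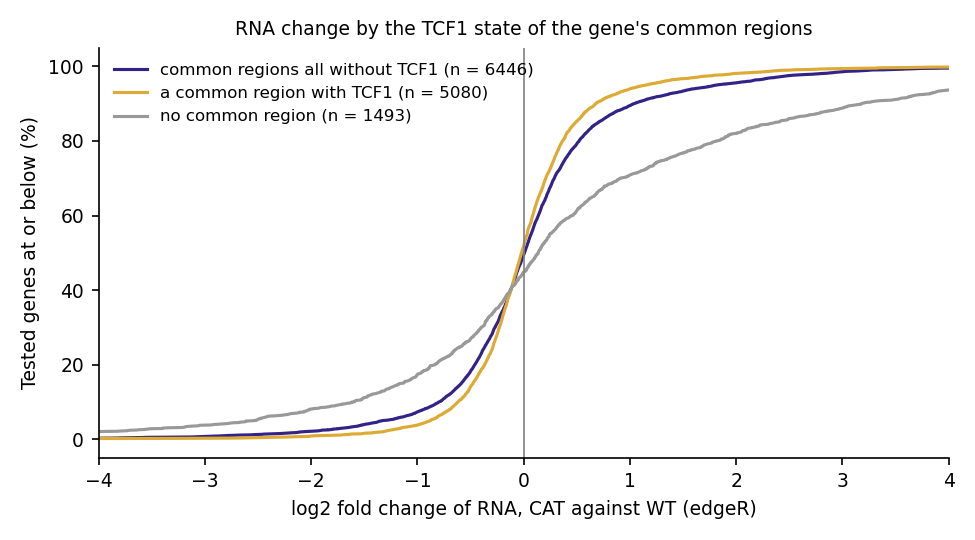
Cumulative share of tested genes (%) against the log2 fold change of RNA in CAT over WT, by the state of the gene's common regions. The curve for genes whose common regions all lacked TCF1 (n = 6446) crosses the 50% level near 0, at 0.00665. That for genes with a TCF1 common region (n = 5080) crosses it at -0.0213.

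Rank correlations between the width change of members and the RNA change of their genes were weak. Among 4403 tested genes whose start lay in a member, Spearman's rho between the log2 width ratio and the log2 RNA change was 0.0201. In the fifth of genes with the strongest narrowing (median width ratio 0.346), 26.9% rose and 25.3% fell, and in the fifth with the least (0.769), 25.9% rose and 22.8% fell. For members that held no listed gene start, rho was 0.0389 over 2751 genes. From the fifth of these genes with the strongest narrowing to the fifth with the least, 29.6, 28.7, 26.0, 25.8 and 24.0% fell, and 25.6, 27.3, 28.0, 27.8 and 28.9% rose. The share that fell thus declined with less narrowing, a trend that was not tested. At Entpd1, which encodes the ectonucleotidase CD39, 6 members lay over the gene and all lacked TCF1. The member at its start covered 663, 868 and 577 bp in WT and 344 and 407 bp in CAT, and another inside the gene at chr19:40639759-40640276 covered 238, 261 and 304 bp in WT and 466 and 323 bp in CAT. The other 4 were also narrower with no overlap. The start thus narrowed while that one widened, and Entpd1 RNA rose from 76.3, 81.2 and 77.0 to 168, 163 and 149.7 CPM (counts scaled to library size; log2 change 1.04, SE 0.08, adjusted p = 1.16e-05, edgeR).

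Of the 26 core Treg genes listed, 7 had common regions that all lacked TCF1, and 6 of these rose and 1 fell. The 16 with a TCF1 common region included 12 that rose and 3 that fell. Their median log2 change was 1.37, against 0.719 for the 7. Foxp3, the lineage-defining factor, measured 86.8, 110.0 and 118 CPM in WT and 153, 155 and 166 CPM in CAT, so that the groups did not overlap (log2 change 0.59, SE 0.11, adjusted p = 0.00221, edgeR). Neither of its 2 members lay over Foxp3 itself: one was at the start of Ppp1r3f and the other at that of Ccdc22, within the merged locus. They covered 985, 774 and 833 bp in WT against 702 and 685 bp in CAT, and 301, 340 and 111 bp against 280 and 327 bp. Cd4, the co-receptor that defines the sorted lineage, had 1 member inside the gene, which covered 385, 328 and 303 bp in WT and 247 and 213 bp in CAT. Its RNA was 567, 607 and 609 CPM in WT and 630, 626 and 710.5 CPM in CAT, a log2 change of 0.14 that did not pass (adjusted p = 0.197, edgeR). Capg, which encodes an actin-capping protein, rose by 0.84 (SE 0.087), Gpr83, a receptor gene, by 1.00 (SE 0.28), and Izumo1r, which encodes folate receptor 4, by 0.72 (SE 0.15), all on the log2 scale. Gpr83 no longer passed once WT replicate 2 was left out (adjusted p = 0.0627, edgeR). The 1 of the 7 that fell, Nt5e, encodes CD73 and was named after its values were seen (log2 change -0.71). Il2ra, Ctla4, Ikzf2, Ikzf4, Satb1, Tcf7, Lef1 and Ctnnb1 each had a common region with TCF1, and Il10 and Gzmb had no common region.

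Effector Treg genes whose common regions all lacked TCF1 had a higher median change than core genes of that kind, a difference that was not tested. Of 23 listed, 9 had common regions that all lacked TCF1. Of these, 8 rose and 1, the adhesion receptor gene Cd44, fell, with a median log2 change of 1.52. All 5 with a TCF1 common region rose, with a median of 1.29, which was below the 1.37 of the core genes of that kind. Il1rl1, the receptor for the alarmin IL-33, measured 48.7, 39.9 and 38.3 CPM in WT and 606, 528.5 and 353 CPM in CAT (log2 change 3.55, SE 0.2, adjusted p = 1.93e-06, edgeR). All CAT values lay above all WT values, while its only member, at the start of the neighbouring Il18r1, covered 462, 467 and 297 bp in WT and 113 and 172 bp in CAT. Ccr2, a chemokine receptor gene, rose from 106, 113 and 84.1 to 1027, 942 and 832 CPM (log2 change 3.21, SE 0.14). Id2, an inhibitor of E proteins, rose from 47.0, 39.4 and 42.8 to 201, 217 and 152 CPM (log2 change 2.14, SE 0.14), and S100a6, a calcium-binding protein gene, rose by 2.98 (SE 0.27). The Cd44 call held only without CAT replicate 3 among the 6 leave-one-out fits.

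Cell cycle genes formed the group with the most calls. Of 39 listed genes, 24 had common regions that all lacked TCF1, and of these 21 rose, 1 fell and 2 did not pass, with a median log2 change of 2.03. The other 15 had a TCF1 common region, and 10 rose and 1 fell with a median of 0.58. Ube2c, the ubiquitin-conjugating enzyme that drives mitotic exit, measured 1.24, 0.699 and 0.993 CPM in WT and 14.6, 12.0 and 8.24 CPM in CAT (log2 change 3.58, SE 0.28, adjusted p = 1.31e-05, edgeR). Ccnb1, which encodes mitotic cyclin B1, measured 4.02, 2.6 and 2.46 CPM in WT and 24.5, 30.4 and 18.4 CPM in CAT (log2 change 3.02, SE 0.24). Birc5, which encodes survivin, rose by 2.86 (SE 0.22), and Aurkb, the kinase of the same chromosomal passenger complex, by 2.82 (SE 0.19). The CAT libraries exceeded the WT libraries for each of these genes.

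The regions at those 4 genes did not share a width change. The Ube2c promoter member covered 845, 514 and 885 bp in WT and 339 and 345 bp in CAT, and the Ccnb1 promoter member 1022, 994 and 914 bp in WT and 423 and 389 bp in CAT. The Birc5 promoter member covered 840, 781 and 739 bp in WT and 760 and 786 bp in CAT, and the Aurkb member 300, 221 and 470 bp in WT and 231 and 432 bp in CAT. The first pair thus narrowed with no overlap, while the groups overlapped in the other pair. Rb1, the cell cycle inhibitor that fell, was named after its values were seen (log2 change -0.59).

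The 10 largest increases among genes whose common regions all lacked TCF1 included 2 further cell cycle inhibitors. Cdkn2a, which encodes p16INK4a and p19ARF, had 3 fragments in all over the WT libraries, and 5.81, 6.997 and 3.1 CPM in CAT. The 3 WT fragments against 408 in CAT give a ratio of 142 (exact 95% interval 48.2 to 691, for counting error only), and the fitted log2 change of 7.04 varied from 6.43 to 7.90 without WT replicate 2 or 3. Cdkn2b, which encodes p15INK4b, measured 0.232, 0.0635 and 0.11 CPM in WT and 7.68, 8.02 and 4.89 CPM in CAT (log2 change 5.66, SE 0.39). The Cdkn2a promoter member covered 997, 1013 and 1022 bp in WT against 521 and 520 bp in CAT, and the Cdkn2b one 897, 994 and 814 bp against 761 and 612 bp. The gene Gm12610 overlaps both members, and whether counting used strand is not given in the sources used here.

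Eomes, a T-box factor of cytotoxic lymphocytes, measured 1.00, 1.30 and 1.21 CPM in WT and 32.5, 38.6 and 42.8 CPM in CAT (log2 change 5.00, SE 0.17, adjusted p = 1.49e-07, edgeR). Its member lay outside Eomes at the start of Gm33460. It covered 915, 766 and 446 bp in WT and 203 and 195 bp in CAT. The summed level of the 8 CD8 T and NK cell markers, of which Eomes is one, was 10.8 to 14.3 CPM in WT and 1160 to 3670 in CAT, and Gzma supplied most of it (0.939 in WT and 2540 in CAT on average). Among the others, mean CPM in WT and CAT was 8.63 and 24.1 for Cd8b1, 0.289 and 1.02 for Cd8a, 0.157 and 2.82 for Klrc1, and 0.132 and 0.614 for Klrd1. It was 0.0262 and 0.104 for Ncr1, and 0.93 and 0.479 for Klrb1c. Cd8b1 itself had common regions that all lacked TCF1, and its RNA rose (log2 change 1.53, SE 0.16, adjusted p = 7.12e-05, edgeR). Their part in the result was not tested.

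The remaining increases were in genes of varied function. Rapgef3, which encodes the cyclic AMP sensor EPAC1, rose from 0.772, 0.445 and 0.699 to 60.2, 59.9 and 27.0 CPM (log2 change 6.27, SE 0.38). Ccdc102a rose by 6.02 (SE 0.24), Ermn by 5.46 (SE 0.46), Tnip3, a gene for an inhibitor of NF-κB signalling, by 4.81 (SE 0.18), the metallothionein gene Mt1 by 4.84 (SE 0.6), and Ky by 4.39 (SE 0.27). AA467197 had 1 fragment in WT and 279 in CAT, so that the ratio was 291 (exact 95% interval 51.8 to 11540, for counting error only), with a fitted log2 change that ranged from 6.95 without CAT replicate 1 to 9.60 without WT replicate 1.

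**Figure D5:**
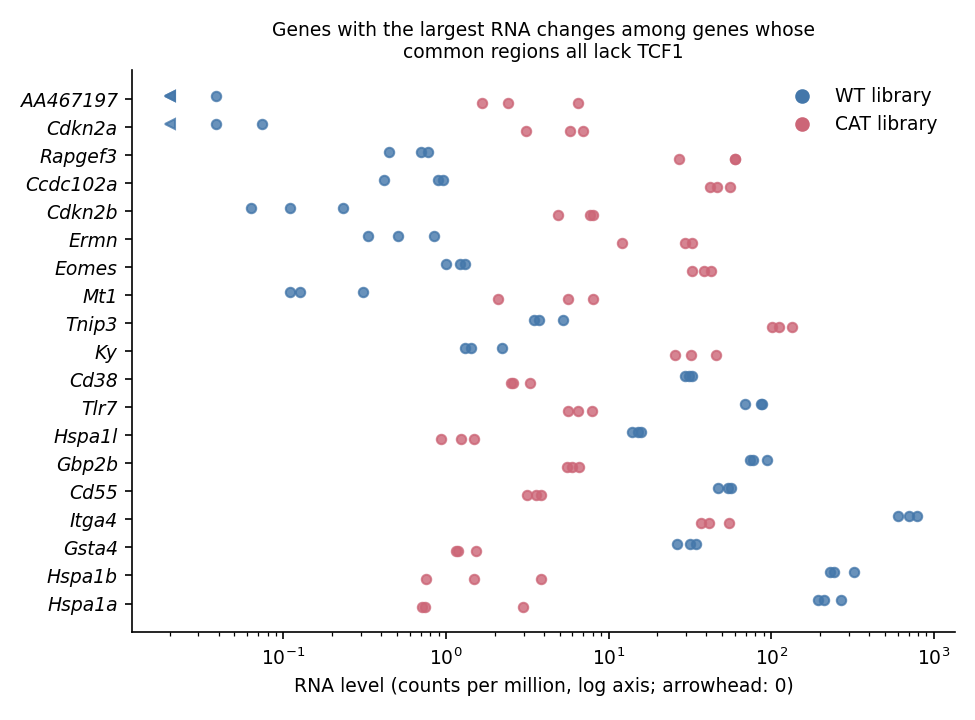
RNA level (CPM, log axis) of genes with the largest called changes among genes whose common regions all lack TCF1, with 1 point per library; arrowheads mark a level of 0. For each gene the 3 WT and the 3 CAT libraries do not overlap, as for Itga4, with 602 to 793.5 CPM in WT and 37.1 to 55.4 CPM in CAT.

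Heat shock genes supplied the largest decreases. Hspa1a and Hspa1b, neighbouring genes for inducible HSP70 with near-identical sequences between which reads may be split, measured 195, 211 and 268 CPM and 231, 244 and 322 CPM in WT. In CAT they measured 0.745, 2.97 and 0.713 CPM and 1.49, 3.82 and 0.749 CPM. The log2 changes were -7.30 (SE 0.4) and -7.08 (SE 0.41), and -8.25 and -7.89 without CAT replicate 2. The promoter members covered 1011, 766 and 806 bp in WT and 392 and 200 bp in CAT for Hspa1a, and 616, 868 and 594 bp in WT and 259 and 343 bp in CAT for Hspa1b. Of the 27 chaperone genes listed, 10 had common regions that all lacked TCF1, of which 6 fell and 4 did not pass. Hsph1, which encodes a nucleotide exchange factor of HSP70, was 1 of the 6 (log2 change -1.79, SE 0.26). The 16 with a TCF1 common region included 7 that fell and 1 that rose.

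Other large decreases fell on surface and other genes. Itga4, the α4 integrin that guides lymphocytes to mucosal tissue, measured 602, 709 and 793.5 CPM in WT and 37.1, 41.7 and 55.4 CPM in CAT (log2 change -3.97, SE 0.17, adjusted p = 4.66e-07, edgeR). The other of its 2 members lay in the neighbouring Cerkl. Its promoter member covered 1270, 1338 and 1388 bp in WT and 993 and 967 bp in CAT. On the log2 scale, Cd55, a regulator of complement, changed by -3.91 (SE 0.13), Tlr7, a sensor of single-stranded RNA, by -3.6 (SE 0.15), and Cd38, an NAD-consuming ectoenzyme gene, by -3.48 (SE 0.14). The interferon-induced GTPase gene Gbp2b changed by -3.77 (SE 0.13), Gsta4, a glutathione transferase gene, by -4.56 (SE 0.17), and Hspa1l by -3.62 (SE 0.19). The summed level of B cell markers was 16.9 to 21.4 CPM in WT and 5.73 to 10.0 CPM in CAT, with Cd79b at a mean of 17.2 and 7.39. That of myeloid markers was 10.6 to 16.4 CPM in WT and 4.6 to 7.71 CPM in CAT, with Lyz2 at 8.56 and 0.811. Csf1r, Adgre1 and Cd14 were also lower in CAT on average. Itgam went the other way, with means of 1.07 in WT and 4.39 in CAT, as did Itgax with 0.13 and 0.329. Neither sum overlapped between genotypes, no marker of either list was at 0 in all libraries, and their part in the decreases was not tested.

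The members at these genes narrowed to different degrees. The Cd55 promoter member covered 829, 790 and 794 bp in WT and 588 and 569 bp in CAT (ratio 0.719). The Cd38 promoter member covered 909, 904 and 748 bp in WT and 156 and 266 bp in CAT (ratio 0.247). The Tlr7 member covered 868, 835 and 668 bp in WT and 204 and 167 bp in CAT (ratio 0.235). Of the 133 distinct members at the named genes, 110 (82.7%) were narrower and 2 wider in both CAT libraries, near the 84% of all common regions that were narrower.

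The interferon and naive cell lists held more genes that fell than rose. All 16 gene lists were chosen with earlier results known, and their counts are set against the background above. In that background 25.5% of tested genes rose and 23.5% fell. Of 14 interferon response genes whose common regions all lacked TCF1, 6 fell, 2 rose and 6 did not pass. The 10 with a TCF1 common region included 6 that fell and 3 that rose, with a median log2 change of -0.389. Ifit1, an antiviral RNA-binding protein gene, measured 103, 165 and 65.4 CPM in WT and 48.6, 30.6 and 28.2 CPM in CAT (log2 change -1.63, SE 0.32, adjusted p = 0.00231, edgeR). Ifit3 changed by -1.72 (SE 0.37), although its promoter member covered 450, 310 and 681 bp in WT and 639 and 594 bp in CAT. WT replicate 2 was the highest library for Ifit1, Ifit3, Rsad2 and Mx2, and without it the log2 change of Rsad2 went from -2.09 to -1.43 and that of Mx2 from -1.63 to -0.85. The median of the 14 genes went from -0.435 to -0.138 without that library, with 6 lower and 1 higher.

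Of 7 genes of naive and lymph-node homing cells, 5 fell and 2 did not pass. The count was 3 without CAT replicate 2, 4 without CAT replicate 1 or any WT replicate, and 5 without CAT replicate 3. The 10 listed genes with a TCF1 common region included 5 that fell and 3 that rose. Their median log2 change was -0.41, against -0.437 for the 7. On the log2 scale Tdrp changed by -2.25 (SE 0.29). Ly6c1, which encodes a GPI-anchored surface protein, measured 92.4, 75.2 and 59.6 CPM in WT and 31.6, 41.3 and 28.0 CPM in CAT, so that the groups did not overlap (log2 change -1.17, SE 0.18, adjusted p = 0.000615, edgeR). Actn1, the α-actinin-1 gene, overlapped between genotypes, and its call was lost without any 1 of the other 5 libraries (adjusted p = 0.0542 to 0.127, edgeR), whereas its log2 change went from -0.97 to -1.60 without CAT replicate 3.

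Receptor signalling and Wnt genes changed in both directions, as did tested genes in general, of which 25.5% rose and 23.5% fell. Whether these lists differ from that background was not tested. Of 13 T cell receptor signalling genes, 5 rose, 2 fell and 6 did not pass. The 20 with a TCF1 common region included 5 that rose and 7 that fell. Malt1, the paracaspase of the NF-κB pathway, rose from 188, 179 and 186 to 449, 448 and 543 CPM (log2 change 1.38, SE 0.096), though 1 of the 15 members assigned to it lay over the gene itself, since its locus was merged with 3 others. Ptpn6, which encodes the inhibitory phosphatase SHP-1, changed by -1.16 (SE 0.18) and Rasgrp1, a Ras activator gene, by 0.71 (SE 0.12).

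Of 48 Wnt pathway genes listed, 17 had common regions that all lacked TCF1. Of the 14 tested, 4 fell, 1 rose and 9 did not pass. Tle1 and Tle4, which encode Groucho co-repressors that bind TCF proteins, changed by -1.78 (SE 0.13) and -0.45 (SE 0.1), the β-catenin co-activator gene Bcl9l by -1.38 (SE 0.2), and Dvl2, a transducer of Wnt receptors, by -0.65 (SE 0.13). The member at the Tle1 start covered 2023, 2017 and 1681 bp in WT and 545 and 616 bp in CAT. The gene that rose was Tcf7l1, named after its values were seen (log2 change 2.10), and 0 to 3 genes of the list rose when 1 RNA library was left out. The Tle4 call was lost with limma on log2(FPKM + 1) (adjusted p = 0.0569). Among the 21 Wnt genes with a TCF1 common region, 5 rose and 5 fell.

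Genes used by all cells showed small changes. Of 24 mitochondrial respiratory chain genes tested, 16 rose and none fell, with a median log2 change of 0.308, and 11 to 19 rose when 1 RNA library was left out. Cox5b, a subunit of cytochrome c oxidase, measured 48.1, 43.3 and 37.4 CPM in WT and 77.3, 73.7 and 64.1 CPM in CAT (log2 change 0.74, SE 0.11). Of 21 proteasome genes, 11 rose and 1 fell, among them Psmd8 (0.68, SE 0.11) and Psmb9 (0.56, SE 0.1), the latter a subunit of the immunoproteasome. The count that rose was 7 without WT replicate 3 or CAT replicate 2. The genes at 33 respiratory chain and 14 proteasome loci with TCF1 common regions had medians of 0.224 and 0.269. Of these, 12 and 7 rose, and 1 and 0 fell.

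Fewer than all of the ribosomal protein genes whose common regions all lacked TCF1 passed, and each one that did fell. Of 18 for the large subunit, 6 fell and 12 did not pass, and of 11 for the small subunit, 7 fell and 4 did not pass. Rpl12 measured 640.5, 568 and 567 CPM in WT and 394, 419 and 414.5 CPM in CAT (log2 change -0.53, SE 0.083), and Rps16 changed by -0.66 (SE 0.15). The calls of Rplp2, Rpl37a and Rps20 were lost with limma on log2(FPKM + 1) (adjusted p = 0.285, 0.0945 and 0.363). Ribosomal protein genes also have many processed copies in the genome, between which reads may be split. The small subunit count was 4 without CAT replicate 1. Among genes with a TCF1 common region, 7 of 27 for the large subunit fell and 1 rose. For the small subunit, 12 of 21 such genes fell and 0 rose.

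Chromatin and RNA-processing genes showed no common direction. Of all tested genes, 25.5% rose and 23.5% fell, and whether these lists differ from that background was not tested. Among 14 genes that encode chromatin modifiers, 4 rose and 2 fell, and 1 fell without WT replicate 2, WT replicate 3 or CAT replicate 2. Uhrf1, which maintains DNA methylation at replication, rose from 22.2, 23.6 and 25.6 to 83.0, 82.8 and 79.3 CPM (log2 change 1.78, SE 0.086), Ezh2, the methyltransferase of Polycomb complex 2, by 0.94 (SE 0.096), and Tet1, a methylcytosine oxidase gene, changed by -0.96 (SE 0.17). Of 12 spliceosome genes, 2 rose and 4 fell, with Srsf7 at -0.73 (SE 0.088), and the count that rose was 1 without WT replicate 2, WT replicate 3 or CAT replicate 2. Of 11 translation factor genes, 3 rose and 1 fell, with Eif1ax at 0.54 (SE 0.1). Of 9 RNA polymerase II genes, 2 fell, Taf7 at -0.68 (SE 0.11) and Gtf2e1 at -0.32 (SE 0.11), the second of which was lost without WT replicate 1, WT replicate 2 or CAT replicate 1 (adjusted p = 0.104, 0.107 and 0.125, edgeR).

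Genes at the 99 members that widened were few. The 60 of these members at a locus touched 136 genes, of which 101 were tested, and 35 rose (34.7%) and 23 fell (22.8%), against 25.5% and 23.5% of all tested genes. The 136 include neighbours reached through extended or merged loci, and the difference in shares was not tested. Genes that themselves hold such a member changed in both directions, as at the 2 genes below. For members wider on the common-region scale, 26.4% of 3930 tested genes rose and 23.0% fell. The member at the start of Cd53, a tetraspanin gene, covered 168, 93 and 151 bp in WT and 285 and 208 bp in CAT, and Cd53 RNA changed by 0.34 on the log2 scale (adjusted p = 0.0295, edgeR). A member inside Cd28, the costimulatory receptor gene, covered 142, 286 and 289 bp in WT and 339 and 307 bp in CAT, and Cd28 RNA changed by -0.90 (adjusted p = 2.65e-05, edgeR). These 2 genes were chosen after their values were seen.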

How the data were processed

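Members and gene lists were chosen with earlier results of these data known. Build mm10 and the tools MACS2, HOMER and Bowtie are given, without versions, in the submitters' processing notes. The authors deposited, per the file headers, ATAC-seq peaks with pileup signal, fold enrichment and −log10 q values, TCF1 peaks without scores, and a gene table of estimated counts and FPKM with the authors' own p-values and q-values, which were not used. Peaks were joined in Python 3.11.15 with pandas 2.3.3. Widths were compared over libraries by exact permutation. ATAC-seq depth is not known from the files. Estimated counts (24198462 to 31612458 fragments per library, rounded) were tested with edgeR 4.0.16 (TMM, quasi-likelihood, filterByExpr) in R 4.3.3, with the procedure tested on simulated data. Alternatives used DESeq2 1.42.0 and limma 3.58.1. Rows with date-mangled identifiers (0.265 to 0.281% of fragments) were left out. The labels do not say that replicates are separate animals, so the p-values cover only variation among the libraries given, which may be technical.

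Named genes were 12 preset genes, the 10 largest called increases and 10 largest decreases with FPKM of at least 5 in 1 genotype, and up to 4 called members per list, of which a few are not reported here. Named regions were the 5 widest and the 5 with the largest and smallest ratio among members that did not overlap. Sequences are from RefSeq (GRCm38.p6).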

Additional observations from a re-analysis of the deposited data

How the results depend on the processing

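The width and RNA results kept their direction under the alternatives run, except as follows. With deposited −log10 q of at least 10, 20 regions remained in the count, their width change was -0.678, the difference from regions with TCF1 turned to 0.367 (exact permutation p = 0.2), 2 were wider, 3 genes rose and 5 fell, and the median change was -0.165. That setting keeps few regions, and the score columns could not be linked to the coordinates. The 99 wider members became 2034 with widths divided by the all-peak median, 4801 with the common-region median (chosen after seeing the data), and 208 to 320 without 1 ATAC library; the cause was not tested. Limma on FPKM called 1091 higher and 970 lower (pseudocount 1), 1087 and 959 (pseudocount 0.1), and 1011 and 893 (no filter). The median change was -0.0267 with no count filter, -0.0312 with DESeq2 and -0.011 with limma without a filter; the cause was not tested.

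Without 1 library, the number of members was 15244 to 17425, the width change -1.01 to -0.887, the difference -0.15 to -0.0854, genes that rose 1307 to 1780, genes that fell 1229 to 1675, and the median RNA change -0.00149 to 0.0108. With the replicate block the width change was -1.01, the difference -0.123, 223 members were wider, and 1656 genes rose and 1530 fell with a median of 0.00539. Same-numbered RNA libraries had deviations correlated at 0.0614, -0.0864 and 0.159. The labels do not say what same-numbered samples share beyond the number, and this check covered RNA only. Of 1196 refits of named genes, 90 lost and 3 gained a call and 0 reversed. ATAC depth limits how narrow or absent peaks can be read.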

Other observations

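Members were not spread evenly over chromosomes. They made up 68.1 to 80.2% of the common regions on each autosome, 89.5% on the X chromosome (443 members) and 94.0% on unplaced contigs (47 members). The 22 common regions on the Y chromosome and both on the mitochondrial genome held no TCF1 peak.

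Genes with 3 or more common regions that all lacked TCF1 numbered 839. Of the 718 tested with edgeR, 28.4% rose and 26.7% fell, against 25.7% and 23.6% of the 4103 tested genes with a single such region and 25.5% and 23.5% of all tested genes. No difference between these shares was tested. Among genes whose common regions all lacked TCF1, the 4404 tested genes with a listed start in a member had a median level of 12.5 FPKM. The other 2042 tested genes had 4.81 FPKM, and they include genes whose start is not listed.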
